A study of Mus musculus with 12 samples.

Results

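The 40 genes described here encode proteins of the complement and coagulation systems. They were chosen by symbol and cover the complement pathways, the receptors of the complement fragments C3a and C5a, and the clotting, contact, fibrinogen, protein C and plasminogen proteins. C1q and the serpins were not in the list. All 40 were found among the 24983 genes of the count table, and all 40 were among the 14469 genes with enough counts to be tested. Livers of 12 C57BL/6J mice were sequenced as bulk RNA, 3 mice in each of 4 groups. The chow group ate standard chow for 24 weeks. The remaining mice received over the same time a NASH diet (for nonalcoholic steatohepatitis) in which fat gave 40% of calories and which held much saturated and trans fat, cholesterol and fructose. Mice on the NASH diet carried osmotic minipumps under the skin, which delivered polyethylene glycol alone (vehicle) or a fatty acid dissolved in it at 5 mg/kg/day. The fatty acid was OA, which is oleic acid, or its nitrated form OA-NO2. No pump is named in the labels of the chow-fed mice, so the effect of the diet and that of the pump cannot be told apart. The sources used here give neither the age nor the sex of the mice, nor the week in which pumps were placed.

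Complement is a cascade of plasma proteases that is started by antibodies and C1, by the mannose-binding lectins or by spontaneous turnover of C3. All starts meet at C3, and the cascade ends in a pore built from C5 to C9. Its small fragments C3a and C5a call in leukocytes through their own receptors. Coagulation is a second protease cascade, started by tissue factor with factor VII or by the contact proteins, which ends when thrombin turns fibrinogen into fibrin and factor XIII crosslinks it, while plasmin dissolves it again. Hepatocytes make most of these plasma proteins, many of them under the control of liver transcription factors and of acute-phase cytokines such as interleukin-6, whereas myeloid cells and adipocytes make a few of them and carry the receptors.

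Total counts ran from 8462590 in chow replicate 1 to 20613777 in vehicle replicate 3. Levels are given as CPM, the counts divided by the library size in units of 1e+06, with library sizes adjusted by edgeR's TMM factors (trimmed mean of M values). The scaling bears on every statement about the diet, because the TMM factors were 0.758 to 0.832 in chow and 1.13 to 1.18 with vehicle. The median gene had a log2 fold change (vehicle over chow) of 0.51 with library size alone, against -0.01 with TMM. On a principal component analysis OA replicate 3 lay at -13.48 on the first axis, apart from the other OA libraries at 49.6 and 40.0 and among the OA-NO2 libraries at -26.8 to 10.3, and the main values of the comparisons with OA are given with and without it. Hepatocyte markers (Alb, Ttr, Apoa1, Apob, Cps1, Serpina1a and Hnf4a) were present in every library.

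In chow liver the plasma proteins of the list spanned a wide range of levels. Taken per kilobase of exon, the 3 fibrinogen chains led with 1679 ± 273 (Fgg), 1428 ± 460 (Fga) and 1311 ± 259 CPM/kb (Fgb). Complement C3 followed with 1175.5 ± 215 and kininogen (Kng1) with 1055 ± 105 CPM/kb (SD, n = 3). Among these 5, neighbours in the order differed by less than the larger of their SDs. Plasminogen (Plg) came next at 732 ± 69.0 CPM/kb, and Mbl2, Cfi, C8g and F2 stood between 341 and 376 CPM/kb. At the low end were tissue factor (F3) at 1.66 ± 0.473, the C3a receptor (C3ar1) at 0.902 ± 0.346, the C5a receptor (C5ar1) at 0.205 ± 0.0849 and the A subunit of factor XIII (F13a1) at 0.0736 ± 0.102 CPM/kb. The low level of factor B (Cfb), 0.856 ± 0.0903 CPM/kb, cannot be read as its true level, because 79.5% of its exon bases are shared with Gm20547, a gene model on the same strand. The same model shares 42.8% of the exon bases of C2. The 40 genes together took 2.97% ± 0.433 of a library's counts in the chow group. Their share was 2.72% ± 0.176 in the vehicle group, 3.39% ± 0.434 in the OA group and 2.87% ± 0.277 in the OA-NO2 group (SD, n = 3).

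To describe the diet, vehicle-infused mice on the NASH diet were compared with chow-fed mice. On the TMM scale, many but not all transcripts of secreted plasma proteins fell, while both anaphylatoxin receptors and factor D rose. In edgeR's quasi-likelihood test with adjustment over all genes, 18 of the 40 genes fell and 3 rose. Among all genes tested, 8.16% were called lower and 11.1% higher. The members' median log2 fold change was -0.59, beside -0.01 over all genes. In 27 members every vehicle library lay below every chow library, and in 4 every vehicle library lay above, where the same held for 19.0% and 20.4% of all genes. The split depends on the scale. With library size alone, 5 members were called lower (C8a, C8b, F7, F10 and Klkb1) and 8 higher (Cfd, Cfp, C4b, C3ar1, C5ar1, F3, F12 and Pros1), and the members' median was -0.07. On that scale 1.71% of all genes were called lower and 38.1% higher. On plain totals 7 members lay lower without overlap and 10 higher, beside 2.79% and 53.9% of all genes. Summed hepatocyte markers were lower too, at 53388 to 66198 CPM with vehicle against 131500 to 161220 CPM in chow, and 4 of the 7 markers fell. Alb made up most of that sum, with means of 42422 CPM with vehicle and 111410 CPM in chow. The median log2 fold change of the 7 markers was -0.83. In a bulk sample fewer cells of a type and less RNA per cell cannot be told apart, and the part of the hepatocyte markers in these results was not tested.

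**Figure D1:**
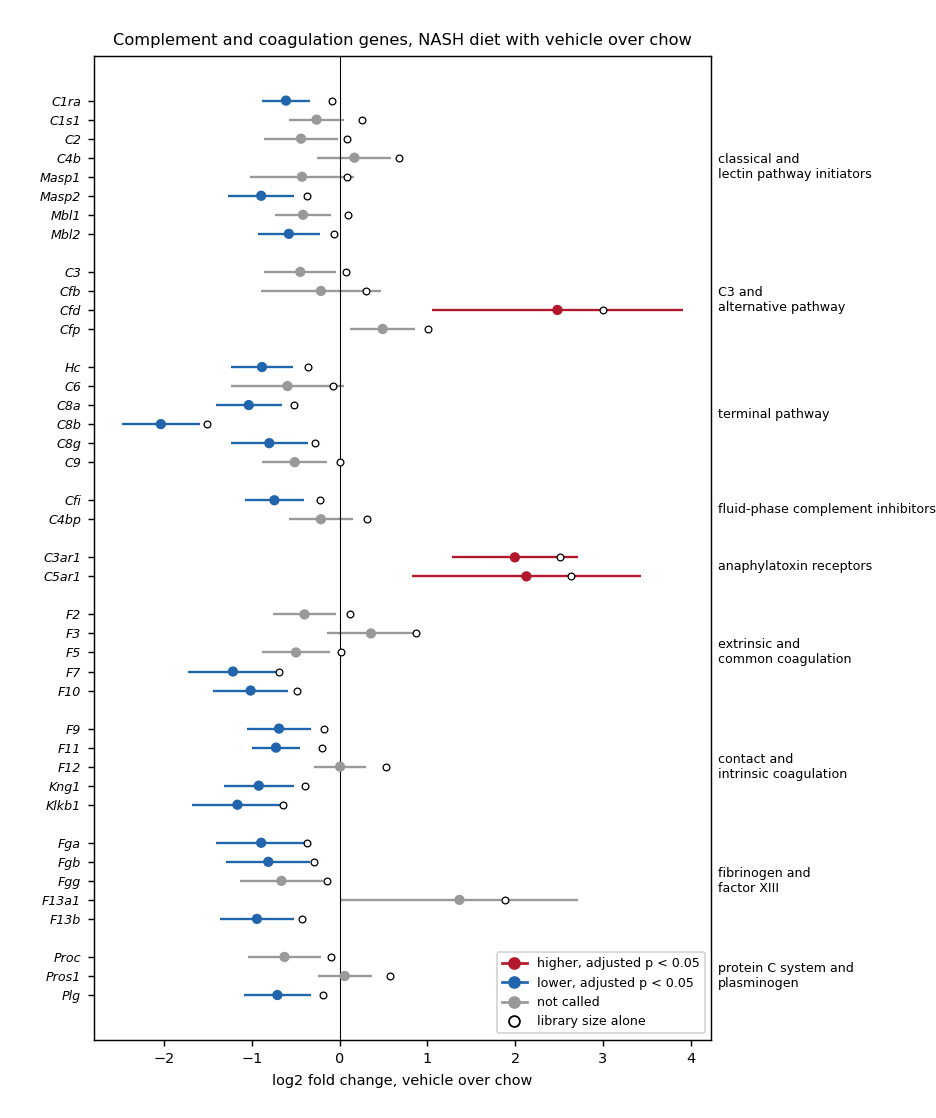
Log2 fold change (x axis) of each of the 40 genes (y axis, grouped by role), vehicle over chow, with approximate 95% intervals on the TMM scale (filled points, coloured by call at adjusted p under 0.05) and with library size alone (open points). The 18 genes called lower include 4 of the terminal pathway, and the 3 called higher are Cfd, C3ar1 and C5ar1, while open points lie to the right of filled ones throughout.

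The terminal pathway, which forms the membrane pore, held the member with the lowest p. C8b, the beta chain of complement C8 (ENSMUSG00000029656, chromosome 4, 104766317 to 104804548, GRCm38), was at 249.8, 233 and 358 CPM in the chow libraries and at 59.4, 78.98 and 66.3 CPM with vehicle. The groups did not overlap, and the log2 fold change was -2.04 ± 0.23 (SE, edgeR adjusted p = 0.000731), which is 4.11-fold lower. C8b was also called lower with library size alone (-1.52) and without any 1 of the 6 libraries, with log2 fold changes of -2.16 to -1.82. The alpha chain, C8a, lies 11130 bases from it on the same chromosome (ENSMUSG00000035031, 104815679 to 104876398). C8a was at 534, 630.3 and 737 CPM in chow and at 249.5, 294 and 383 CPM with vehicle, a log2 fold change of -1.04 ± 0.19 (adjusted p = 0.00455). Hc, which encodes complement C5 (ENSMUSG00000026874, chromosome 2, 34983331 to 35061438), was at 960.2, 971 and 1220.4 CPM in chow. With vehicle it was at 557, 526 and 624 CPM, all below chow, and the log2 fold change was -0.89 ± 0.18 (adjusted p = 0.00666). The gamma chain of C8, C8g, fell 1.74-fold. C6 and C9, the other pore components of the list, did not pass the test, with log2 fold changes of -0.60 (adjusted p = 0.219) and -0.51 (adjusted p = 0.0738).

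Of the 8 classical and lectin pathway initiators 3 fell and 0 rose. Masp2, the protease that cleaves C4 and C2 once a lectin has bound (ENSMUSG00000028979, chromosome 4, 148602554 to 148615499), was at 161, 109 and 141 CPM in chow and at 82.7, 71.2 and 66.99 CPM with vehicle. The groups were apart, with a log2 fold change of -0.90 ± 0.19 (adjusted p = 0.00869). However, 54.9% of its exon bases lie under Tardbp on the other strand, and no source used here says whether the counting used strand, so its level is uncertain. C1ra, a protease of the C1 complex, fell 1.53-fold, and the mannose-binding lectin Mbl2 fell 1.49-fold. The other initiators, C1s1, C2, C4b, Masp1 and Mbl1, had log2 fold changes of -0.44 to 0.17 and did not pass. C1ra, C1s1 and C4b have the near copies C1rb, C1s2 and C4a, and of these C4a carried the most counts, with a median of 21.4 CPM. Both mannose-binding lectins, C1s1 and C2 lay lower in all 3 vehicle libraries than in any chow library, C2 by a small margin (22.1 against 22.6 CPM).

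Among C3 and the alternative pathway genes, 1 of 4 rose. C3, the hub of the cascade, had a log2 fold change of -0.45 (adjusted p = 0.147). Its vehicle libraries, at 4218 to 4837 CPM, lay below its chow libraries, at 5191 to 7294 CPM. Properdin (Cfp), which holds the alternative pathway convertase together and comes largely from leukocytes, had a log2 fold change of 0.49 (adjusted p = 0.0858). Cfd, factor D, the protease that cleaves factor B and a classical product of adipocytes (ENSMUSG00000061780, chromosome 10, 79890853 to 79892655), was at 4.21, 3.72 and 2.43 CPM in chow and at 9.74, 31.8 and 14.9 CPM with vehicle. All vehicle libraries were above chow but lay far apart from each other. Its log2 fold change was 2.48 ± 0.73 (adjusted p = 0.0322), 5.58-fold higher. This call is not stable: it was lost in limma voom and without any 1 of the libraries other than vehicle replicate 1, where the adjusted p reached 0.115.

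Both anaphylatoxin receptors, which myeloid cells carry, rose. C3ar1 (ENSMUSG00000040552, chromosome 6, 122847138 to 122856161) was at 2.34, 3.99 and 5.31 CPM in chow and at 11.6, 20.3 and 16.5 CPM with vehicle. This was a log2 fold change of 2.00 ± 0.37 (adjusted p = 0.00436), or 3.99-fold, and it was called without any 1 of the libraries. C5ar1 (ENSMUSG00000049130, chromosome 7, 16246743 to 16259540) was at 0.468, 0.344 and 0.768 CPM in chow and at 2.33, 2.72 and 2.11 CPM with vehicle. The groups were apart, and the log2 fold change was 2.13 ± 0.67 (adjusted p = 0.0406). C5ar1 lost its call in limma voom and in each of the 6 fits that left out 1 library, with adjusted p of 0.0587 to 0.145. Recruited macrophage markers (Trem2, Gpnmb, Cx3cr1, Ccr2 and Itgax) moved with the receptors, since all 5 rose and their summed level was 73.4 to 144 CPM with vehicle against 3.59 to 5.12 CPM in chow. Of 6 general macrophage markers 3 rose and 1, Marco, fell, and their sum was 410.1 to 576 CPM with vehicle against 146 to 330.3 CPM in chow. The part of these cells in the receptors' rise was not tested. Of the fluid-phase inhibitors, factor I (Cfi), which cleaves C3b and C4b, fell 1.68-fold, and the C4b-binding protein (C4bp) had a log2 fold change of -0.21 (adjusted p = 0.439).

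**Figure D2:**
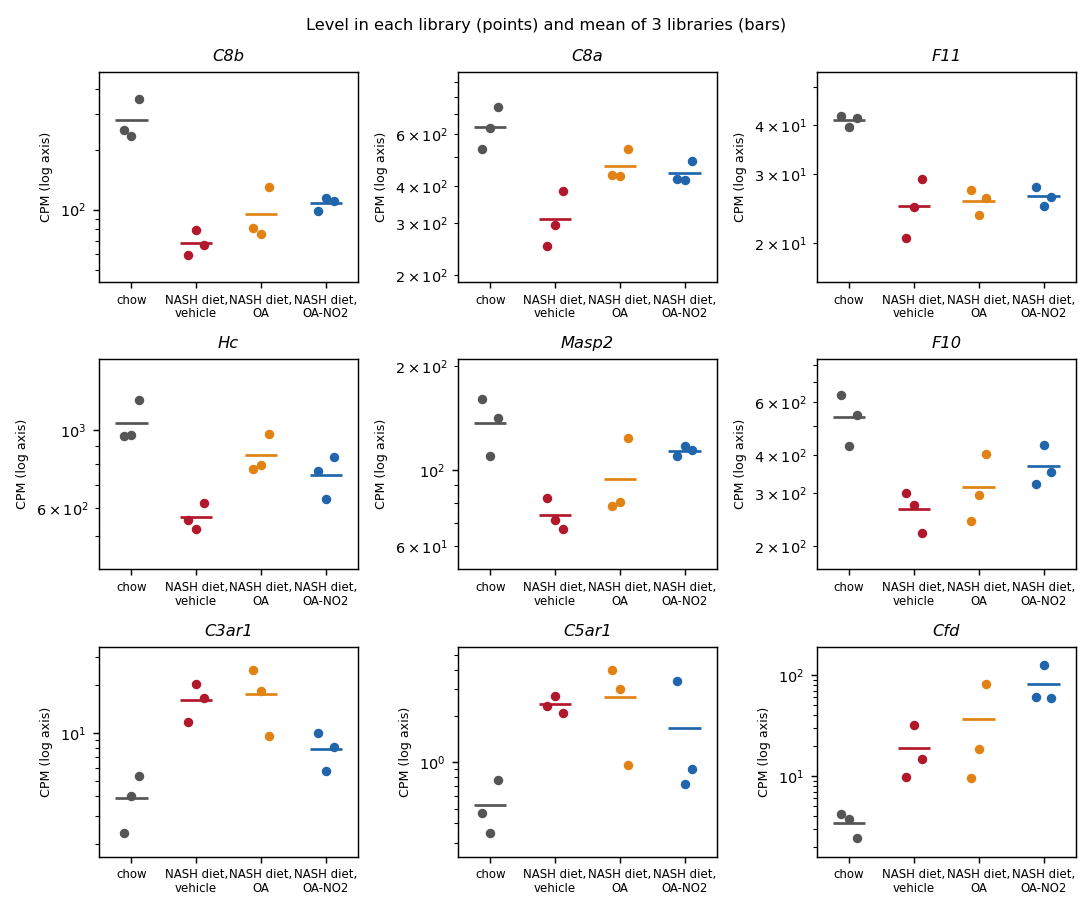
CPM on a log axis (y) in each library (points) of the 4 groups (x), with the mean of 3 libraries (bars), for the 6 members with the lowest p among those that fell and the 3 that rose with vehicle. The chow libraries lie above all vehicle libraries for C8b, C8a, F11, Hc, Masp2 and F10 and below them for C3ar1, C5ar1 and Cfd, and OA replicate 3 (rightmost OA point) has the highest Cfd of its group at 81.2 CPM and the lowest C3ar1 at 9.57 CPM.

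In coagulation, 10 of 18 genes fell and 0 rose. Of the 5 extrinsic and common pathway genes 2 fell, the neighbours F7 and F10, whose genes lie 1498 bases apart on chromosome 8. F10, the protease that activates prothrombin (ENSMUSG00000031444, 13037308 to 13056676), was at 633, 431 and 543 CPM in chow and at 301, 273 and 221 CPM with vehicle. The groups did not overlap, and the log2 fold change was -1.02 ± 0.22 (adjusted p = 0.00888). F7, the partner of tissue factor, fell 2.32-fold. Prothrombin (F2), the precursor of thrombin, and factor V (F5), the cofactor of activated factor X, had log2 fold changes of -0.40 (adjusted p = 0.142) and -0.50 (adjusted p = 0.0974). Tissue factor (F3), which is not a secreted plasma protein, had a log2 fold change of 0.36 (adjusted p = 0.343), with overlapping groups.

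Of the 5 contact and intrinsic pathway genes 4 fell. F11 (ENSMUSG00000031645, chromosome 8, 45241174 to 45262031), a protease that activates factor IX, was at 42.1, 39.6 and 41.7 CPM in chow and at 20.6, 24.8 and 29.1 CPM with vehicle. It was below chow in all 3 libraries, with a log2 fold change of -0.73 ± 0.14 (adjusted p = 0.00538). Its neighbour Klkb1, plasma kallikrein, fell 2.24-fold, although 43.2% of its exon bases are shared with the gene model Gm45753 on the same strand. Kng1, the precursor of bradykinin, fell 1.89-fold, and its near copy Kng2 (median 352 CPM) could share reads with it. F9 fell 1.62-fold. F12, which starts the contact pathway, was the exception in this group, with 311 ± 36.3 CPM in chow and 312 ± 37.7 CPM with vehicle (SD, n = 3). Its log2 fold change was 0.00, with an approximate 95% interval of -0.29 to 0.30, and with library size alone it was called higher (0.52).

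The 3 fibrinogen genes form a cluster on chromosome 3. Fga fell 1.86-fold and Fgb 1.76-fold, while Fgg had a log2 fold change of -0.66 (adjusted p = 0.0721). All 3 lay lower in each vehicle library than in any chow library, but Fga ranged from 2849 to 5609 CPM within chow. F13b, the carrier subunit of factor XIII, fell 1.92-fold. The catalytic subunit F13a1, which comes from macrophages and platelets, was at 0, 0.206 and 1.28 CPM in chow and at 1.12, 2.19 and 1.23 CPM with vehicle (adjusted p = 0.181). In the protein C and plasminogen group Plg fell 1.64-fold. Protein C (Proc), an anticoagulant protease, had a log2 fold change of -0.63 (adjusted p = 0.0516), and its cofactor protein S (Pros1) one of 0.06 (adjusted p = 0.827).

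Of the 18 genes that fell, 9 were called without any 1 of the 6 libraries (C1ra, C8a, C8b, F7, F10, F11, Hc, Kng1 and Masp2). Cfi, F13b and Klkb1 lost the call in 1 of the 6 fits, C8g, F9, Fgb and Plg in 4, and Fga and Mbl2 in 5, with a highest adjusted p of 0.0502 to 0.142. Without vehicle replicate 3 the number that fell was 10, and without chow replicate 1, the shallowest library, 13 fell and 1 rose. DESeq2 called 23 lower and 3 higher. The shares of all genes called in these fits are not given here, so the counts describe only how the members' calls moved.

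Promoter sequences from RefSeq (GRCm38.p6) were found for 32 of the 40 members. The 250 bases before the RefSeq start site are shown, 5′ to 3′ on the gene's strand, for the 3 matched members with the largest falls under the diet and for 2 of the 3 with rises. C5ar1 is left out because most of its window lies within the GENCODE model of the gene, and the ends of the Klkb1 and C3ar1 windows also run a short way into theirs. Capitals mark matches to the motifs below.

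C8b, chr4:104766067-104766316, + strand: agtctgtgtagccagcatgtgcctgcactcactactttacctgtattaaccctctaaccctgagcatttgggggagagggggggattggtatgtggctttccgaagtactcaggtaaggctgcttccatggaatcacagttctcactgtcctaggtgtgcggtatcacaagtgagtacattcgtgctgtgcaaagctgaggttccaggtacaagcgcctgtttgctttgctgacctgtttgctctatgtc
F7, chr8:13025784-13026033, + strand: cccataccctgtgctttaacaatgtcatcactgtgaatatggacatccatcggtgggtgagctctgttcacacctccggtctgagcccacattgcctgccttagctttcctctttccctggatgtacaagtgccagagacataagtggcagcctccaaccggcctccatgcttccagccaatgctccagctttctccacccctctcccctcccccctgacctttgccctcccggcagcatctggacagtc
Klkb1, chr8:45294836-45295085, - strand: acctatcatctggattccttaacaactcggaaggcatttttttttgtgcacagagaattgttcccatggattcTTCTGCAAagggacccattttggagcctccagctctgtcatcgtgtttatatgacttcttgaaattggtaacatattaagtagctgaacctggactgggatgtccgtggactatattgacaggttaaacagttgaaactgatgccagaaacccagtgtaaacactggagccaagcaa
Cfd, chr10:79890603-79890852, + strand: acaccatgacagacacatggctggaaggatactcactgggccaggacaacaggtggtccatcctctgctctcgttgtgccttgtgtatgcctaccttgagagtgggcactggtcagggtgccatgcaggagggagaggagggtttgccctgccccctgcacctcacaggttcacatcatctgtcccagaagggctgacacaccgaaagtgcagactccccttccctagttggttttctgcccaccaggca
C3ar1, chr6:122856158-122856407, - strand: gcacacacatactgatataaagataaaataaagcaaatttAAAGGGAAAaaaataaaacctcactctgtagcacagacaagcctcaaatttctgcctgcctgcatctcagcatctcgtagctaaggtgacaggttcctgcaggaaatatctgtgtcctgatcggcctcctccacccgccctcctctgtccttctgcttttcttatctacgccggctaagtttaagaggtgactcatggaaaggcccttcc

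The search covered 300 bases, 250 before and 50 after the start site, on both strands, and no motif searched overlapped another in the sequences shown. HNF1 (GTTAATNAT), the motif of a hepatocyte factor, was found in 4 of the 32 member promoters (C4bp, F13b, Fga and Hc), beside 0.801% of all 32851 promoters in the table. The C/EBP motif (TTGCNNAA) was found in 9 (C1ra, C1s1, C3, C9, F9, F11, Fga, Fgb and Klkb1), beside 10.8% of all. STAT3 (TTCCNGGAA), the motif of the factor that interleukin-6 activates, was found in Fga and Pros1 (1.15% of all), and the interferon-stimulated response element (AAANNGAAA) in C3ar1, F13a1 and Hc (10.6% of all). Fga, singled out after its matches were seen, held 3 of them, STAT3 from base -234, C/EBP from -135 and HNF1 from -46 relative to the start site. The 250 bases before the RefSeq start site of Fga end at 83026152, while its GENCODE model starts at 83026076. The HNF1 match therefore lies within that model. HNF4 (CAAAGTCCA, 0.475% of all) and NF-kB (GGGANTTTC, 1.11% of all) were found in 0 of the 32. C8b, F7 and Cfd held none of the 6 in the bases shown. A match is a run of letters and was not tested as a binding site.

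To see how the fatty acids bore on these genes, the infused groups were compared on the same diet. With OA no member was called against vehicle in edgeR's quasi-likelihood test (lowest adjusted p = 0.975), as for all genes (0.0% called). DESeq2 and limma voom called 0 members too, and 9 members were higher and 0 lower at an unadjusted p under 0.05, beside 2.36% and 1.53% of all genes. The members leaned upward, with 35 of 40 log2 fold changes above 0 and a median of 0.30, beside 0.00 over all genes. In 14 members every OA library lay above every vehicle library, and in 0 below, beside 7.81% and 5.31% of all genes. On plain totals these were 12 and 0 members, beside 3.73% and 8.03% of all genes. Without OA replicate 3 the median was 0.17, with 31 of 40 log2 fold changes above 0. Over all 14853 genes tested in that edgeR fit the median was -0.02, with 6984 above 0. At an unadjusted p under 0.05, 3 members were then higher and 0 lower, beside 127 and 146 of all genes. In 16 members the remaining OA libraries then lay above every vehicle library and in 0 below, beside 12.7% and 9.2% of all genes.

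The 3 members with the lowest p for OA were Hc, C8a and Fga. Hc was at 777, 799 and 974 CPM with OA, above all vehicle libraries, a log2 difference of 0.58 (approximate 95% interval 0.23 to 0.93). C8a was at 434, 431 and 534 CPM, a log2 difference of 0.59 (interval 0.22 to 0.97). Fga was at 2866, 4865 and 4124 CPM against 1959, 2561 and 2415 CPM with vehicle, a log2 difference of 0.77 (interval 0.26 to 1.29). Without OA replicate 3, which had the highest value of the group for Hc and C8a, the log2 differences were 0.45 for Hc, 0.46 for C8a and 0.72 for Fga. For all 3 the OA mean lay between the means of vehicle and chow on the TMM scale. On plain totals this held for C8a alone, at 500 CPM with OA, 356 CPM with vehicle and 510.5 CPM in chow. Hc and Fga, at 912 and 4251 CPM with OA, then lay above their chow means of 844 and 3440 CPM. The hepatocyte markers' summed level, most of it Alb, was 61872 to 102560 CPM with OA against 53388 to 66198 CPM with vehicle. The part of the hepatocyte markers in these values was not tested.

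With OA-NO2, compared with the same vehicle libraries, no member was called against vehicle either (edgeR, lowest adjusted p = 0.164), where 0.0207% of all genes were called. DESeq2 and limma voom also called 0, and at an unadjusted p under 0.05 there were 8 higher and 2 lower members, beside 7.25% and 8.51% of all genes. In 13 members every OA-NO2 library lay above every vehicle library and in 3 below (C3ar1, F3 and F13a1), beside 9.18% and 10.5% of all genes. On plain totals the counts were 3 and 4, beside 2.72% and 21.2%. The members' median log2 fold change was 0.29, and 0.10 with library size alone. F3 had the lowest p, at 2.68, 2.95 and 3.14 CPM with OA-NO2 against 3.87, 6.66 and 5.96 CPM with vehicle, a log2 difference of -0.91 (interval -1.41 to -0.41). Cfd was at 60.8, 125 and 59.2 CPM, above every vehicle library, a log2 difference of 2.13 (interval 0.87 to 3.38, adjusted p = 0.174). Masp2 was at 109.6, 118 and 114 CPM, a log2 difference of 0.63 (interval 0.252 to 1.002). The C3a receptor was at 9.93, 5.75 and 8.09 CPM, below all vehicle libraries, and recruited macrophage markers summed to 12.3 to 56.4 CPM with OA-NO2 against 73.4 to 144 CPM with vehicle. The part of these cells in the value of C3ar1 was not tested.

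**Figure D3:**
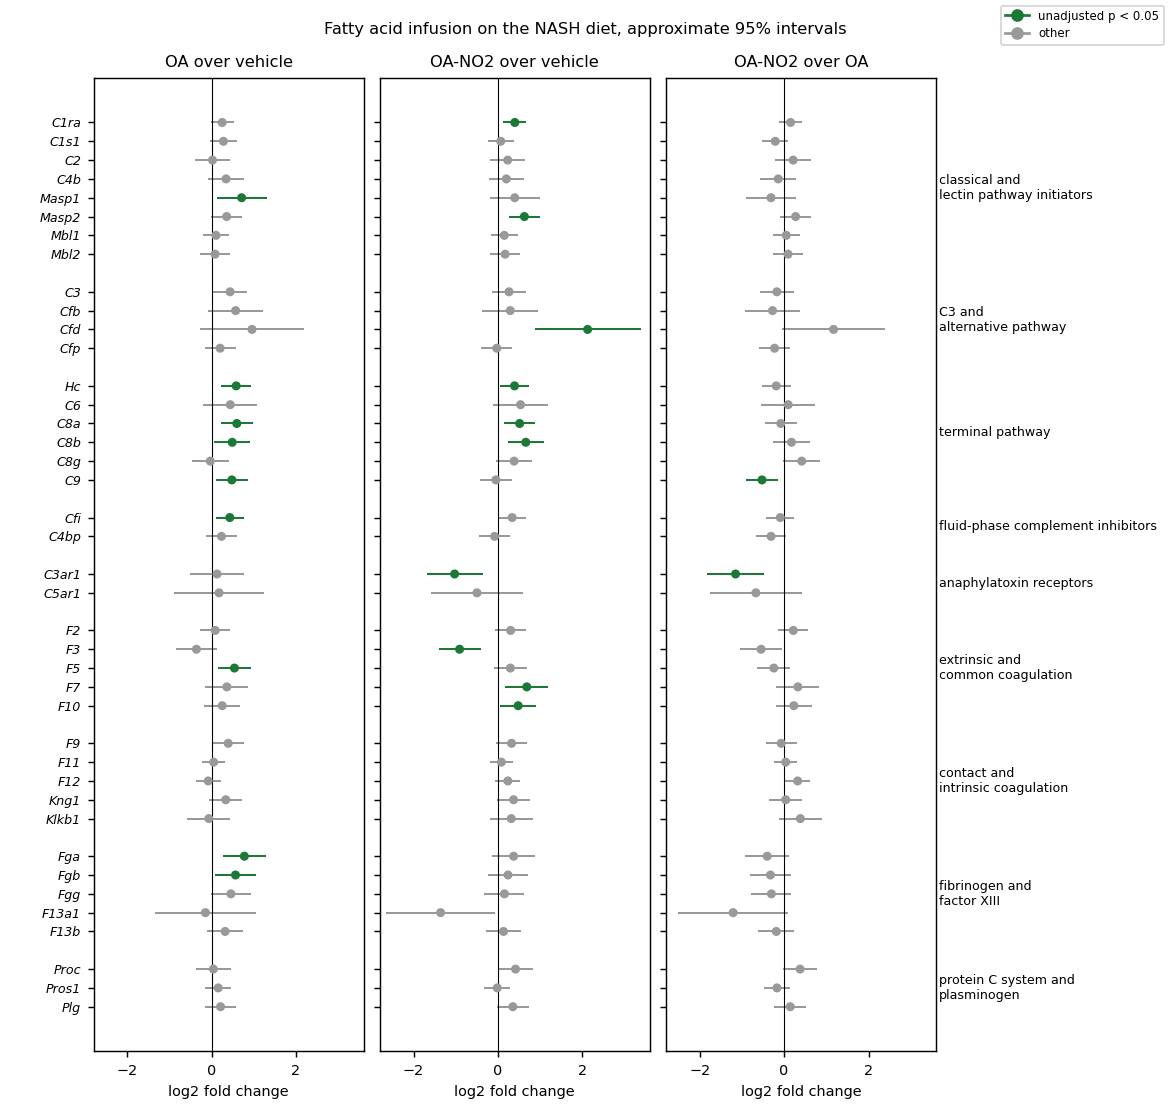
Log2 fold change (x axis) with approximate 95% intervals for the 40 genes (y axis, grouped by role) in 3 comparisons, OA over vehicle, OA-NO2 over vehicle and OA-NO2 over OA. Green marks an unadjusted p under 0.05, and none of the points passed after adjustment over all genes, although 35 lie above 0 for OA and 32 for OA-NO2 against vehicle.

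OA and OA-NO2 differ by the nitro group and were infused at the same dose, so they were compared directly, as 1 pair. No member was called (edgeR, lowest adjusted p = 0.313), beside 0.00691% of all genes, and DESeq2 and limma voom called 0. At an unadjusted p under 0.05, 0 members were higher and 2 lower with OA-NO2, C3ar1 and C9, beside 5.27% and 6.76% of all genes, so the share that was lower is near that of all genes. C3ar1 was at 24.9, 18.3 and 9.57 CPM with OA, so its lowest OA library lay below the highest OA-NO2 library, and the log2 difference was -1.15 (interval -1.82 to -0.49). C9, a pore component, was at 365, 429 and 463 CPM with OA-NO2 and at 540.0, 591 and 678 CPM with OA, without overlap, a log2 difference of -0.52 (interval -0.90 to -0.15). F3 followed with -0.55 (interval -1.05 to -0.05). For most other members the interval held 0, for example C8b with 0.17 (-0.26 to 0.60), so neither a difference nor its absence was shown. The intervals, here and above, are normal approximations and a little narrower than the test implies. OA replicate 3 weighed on this comparison. Without it Cfd was called higher with OA-NO2 (log2 difference 2.56, adjusted p = 0.0361, against 1.17 and 0.465 with it) and C3ar1 lower (-1.44, adjusted p = 0.0442). The share of all genes called in that fit is not given here. At an unadjusted p under 0.05, 7 members were then higher and 2 lower, beside 1227 and 1435 of all 14853 genes tested. In 11 members every OA-NO2 library lay above the remaining OA libraries and in 5 below, beside 2513 and 2801 of all genes. With OA replicate 3 these were 1 and 2 members, beside 1010 and 1066 of 14469 genes. The members' median was 0.03 without OA replicate 3 and -0.08 with it.

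Against chow, OA-infused mice had 4 members called higher (C3ar1, C5ar1, Cfd and Cfp) and 5 lower (C8b, C8g, F10, F11 and Klkb1), beside 6.33% and 2.23% of all genes. These comparisons share the chow libraries with that of vehicle, so the values stand side by side and are no further evidence. C8b was at 81.2, 75.8 and 129.6 CPM with OA, a log2 fold change of -1.55 ± 0.22 (edgeR adjusted p = 0.00284), and C3ar1 had one of 2.12 ± 0.37 (adjusted p = 0.00594). F11, at 27.3, 23.6 and 26.1 CPM, had a log2 fold change of -0.68 ± 0.14 (adjusted p = 0.0115). Klkb1, at 116, 133 and 208 CPM, had one of -1.23 ± 0.26 (adjusted p = 0.0135). All OA libraries of these falling genes lay below chow. C8g, at 241, 282 and 342 CPM, and F10, at 242, 297 and 405 CPM, had log2 fold changes of -0.84 ± 0.22 (adjusted p = 0.0354) and -0.77 ± 0.22 (adjusted p = 0.0461). Properdin was at 39.6, 43.8 and 39.4 CPM, above all chow libraries, with a log2 fold change of 0.69 ± 0.19 (adjusted p = 0.0400). C5ar1, at 4.03, 3.02 and 0.963 CPM, had one of 2.30 ± 0.67 (adjusted p = 0.0488). Without OA replicate 3 the counts were 3 higher and 12 lower, and leaving out other libraries gave 1 to 3 higher and 1 to 3 lower. The shares of all genes called in those fits are not given here. C8b and C3ar1 kept the call without any 1 library, F11 lost it in 1 of 6 fits, Klkb1 and Cfd in 3, and C5ar1, C8g, Cfp and F10 in 5. With library size alone C8g, F10 and F11 lost the call (F11 -0.25, adjusted p = 0.268), and 7 members were called higher and 2 lower, beside 25.2% and 0.878% of all genes.

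OA-NO2-infused mice had 1 member called higher and 1 lower against chow, Cfd and C8b, beside 0.435% and 0.249% of all genes. C8b was at 98.9, 114 and 110.2 CPM, a log2 fold change of -1.38 ± 0.22 (edgeR adjusted p = 0.0220), and Cfd had one of 4.61 ± 0.76 (adjusted p = 0.0252). C8b was thus below chow in all 9 libraries of the NASH diet. Both calls were lost when some single libraries were left out, 3 of 6 for C8b and 5 of 6 for Cfd, with adjusted p up to 0.102 and 0.101. With library size alone 2 members were called higher and 1 lower, beside 7.6% and 0.194% of all genes. On the TMM scale, the means of the 18 genes that fell with vehicle lay between vehicle and chow in 16 with OA and in 18 with OA-NO2. Fewer did so on plain totals. There C8b stayed between with both fatty acids, but Fga with OA (4251 CPM) lay above chow (3440 CPM). With OA-NO2, C1ra (166 CPM) then lay above chow (154 CPM) and F11 (26.5 CPM) below vehicle (28.6 CPM). The order on the TMM scale is a description: the 18 were chosen for low vehicle values, and 0 of them passed in either comparison with vehicle.

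**Figure D4:**
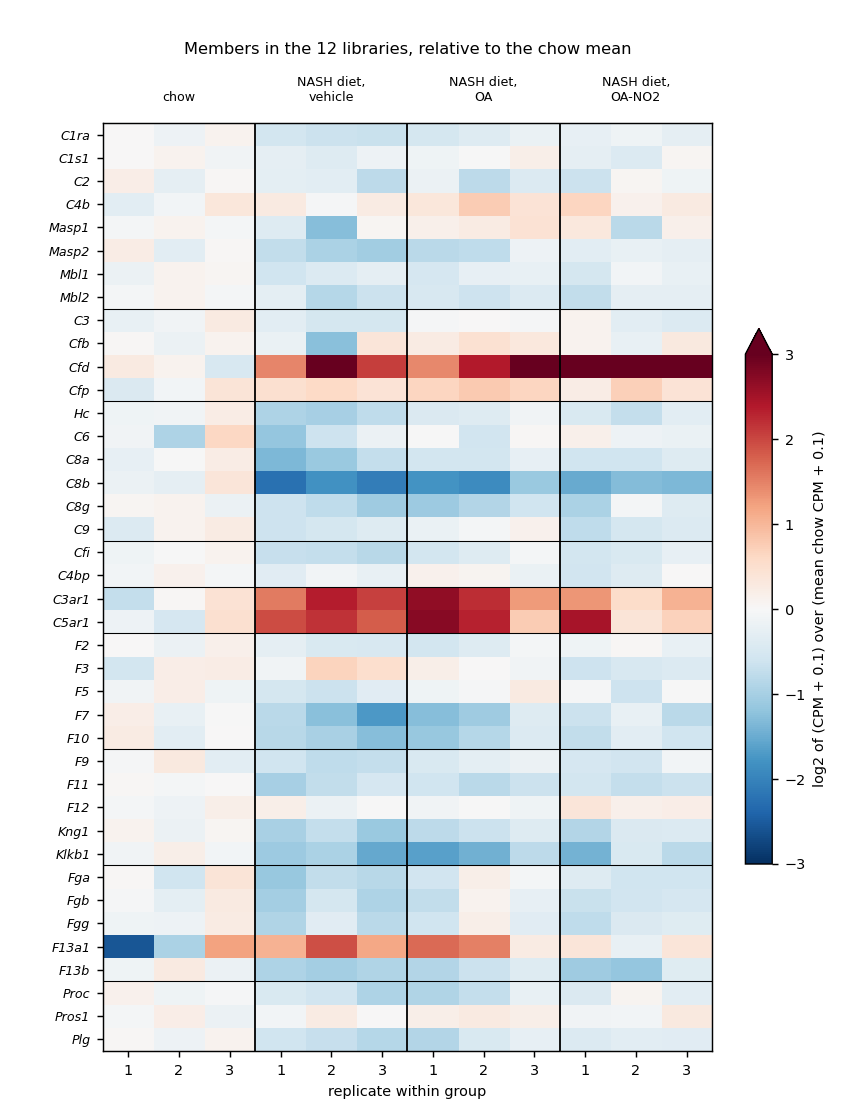
Each row is a gene and each column a library, ordered by group and replicate (x axis), and the colour is the log2 ratio of CPM + 0.1 to the chow mean + 0.1, limited to 3 in either direction. Vehicle libraries are bluer than chow for most plasma proteins. C8b is blue in all NASH diet columns, with a vehicle mean of 68.2 CPM against 280.2 CPM in chow. Cfd reaches the red limit of the colour scale in the OA-NO2 libraries, in OA replicate 3 and in vehicle replicate 2, so their colours do not rank them.

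Factor D differed widely among the libraries of the NASH diet. Cfd was at 9.74 to 31.8 CPM with vehicle, at 9.53, 18.5 and 81.2 CPM with OA and at 59.2 to 125 CPM with OA-NO2, so the highest vehicle library was below the lowest OA-NO2 library. OA replicate 3 had a level like that of the OA-NO2 libraries, and without it the log2 difference of OA over vehicle turned from 0.95 to -0.45. The other 4 genes of the adipocyte marker list (Adipoq, Lep, Plin1 and Retn) summed to at most 0.312 CPM in 11 libraries. They reached 3.35 CPM in vehicle replicate 1, which had the lowest Cfd of its group at 9.74 CPM. The part of adipocytes in the level of Cfd was not tested.

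The systems hold further genes outside the list, and 48 of 51 such genes could be tested. With vehicle 14 of them rose and 10 fell, with a median log2 fold change of -0.06. Among all genes tested, 11.1% were called higher and 8.16% lower. These calls are on the TMM scale, and those with library size alone are not given here. All 3 chains of C1q, the recognition part of C1 and a macrophage product, rose, with log2 fold changes of 1.42 (C1qb), 1.198 (C1qa) and 1.08 (C1qc). The C1 inhibitor Serping1 fell (-0.92). Complement receptors of leukocytes rose in 3 of 5 cases, the integrins Itgax (4.03), Itgb2 (1.71) and Itgam (1.92). Of 7 further complement components 4 fell and 0 rose, with Fcna, a ficolin, at -1.36 and Colec10, a collectin, at -0.90. None of 8 complement regulators was called by edgeR, 2 of them being lower at an unadjusted p under 0.05, and the lowest p was that of vitronectin (Vtn, -0.80, adjusted p = 0.0517). Cd55 had a log2 fold change of -0.26.

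On the coagulation side, 7 of 9 fibrinolysis genes rose and 1 fell, beside 11.1% and 8.16% of all genes. Annexin A2 (Anxa2), a surface platform for plasminogen activation, rose by a log2 fold change of 3.32, and Thbs1, thrombospondin, by 3.90. The plasminogen activator Plat rose from 0.118 CPM in chow to 4.59 CPM with vehicle, with too few chow counts for a fold change. Serpinf2, the plasmin inhibitor made by hepatocytes, fell (-1.11), and it and Serping1 are named, after their values were seen, as the falling genes of their lists. Of 7 anticoagulants 2 fell, heparin cofactor II (Serpind1, -1.06) and antithrombin (Serpinc1, -0.61), and 1 rose, the endothelial protein C receptor (Procr, 1.85). Of 8 further coagulation factors and vitamin K enzymes 2 fell, Proz (-0.92) and Lman1 (-0.56), and 0 rose, with Vwf at 1.21 (adjusted p = 0.163). Against vehicle 0 of the 48 were called by edgeR with OA and 0 with OA-NO2. At an unadjusted p under 0.05, 3 were higher and 0 lower with OA, beside 2.36% and 1.53% of all genes. With OA-NO2 3 were higher and 10 lower at that level, beside 7.25% and 8.51% of all genes.

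**Figure D5:**
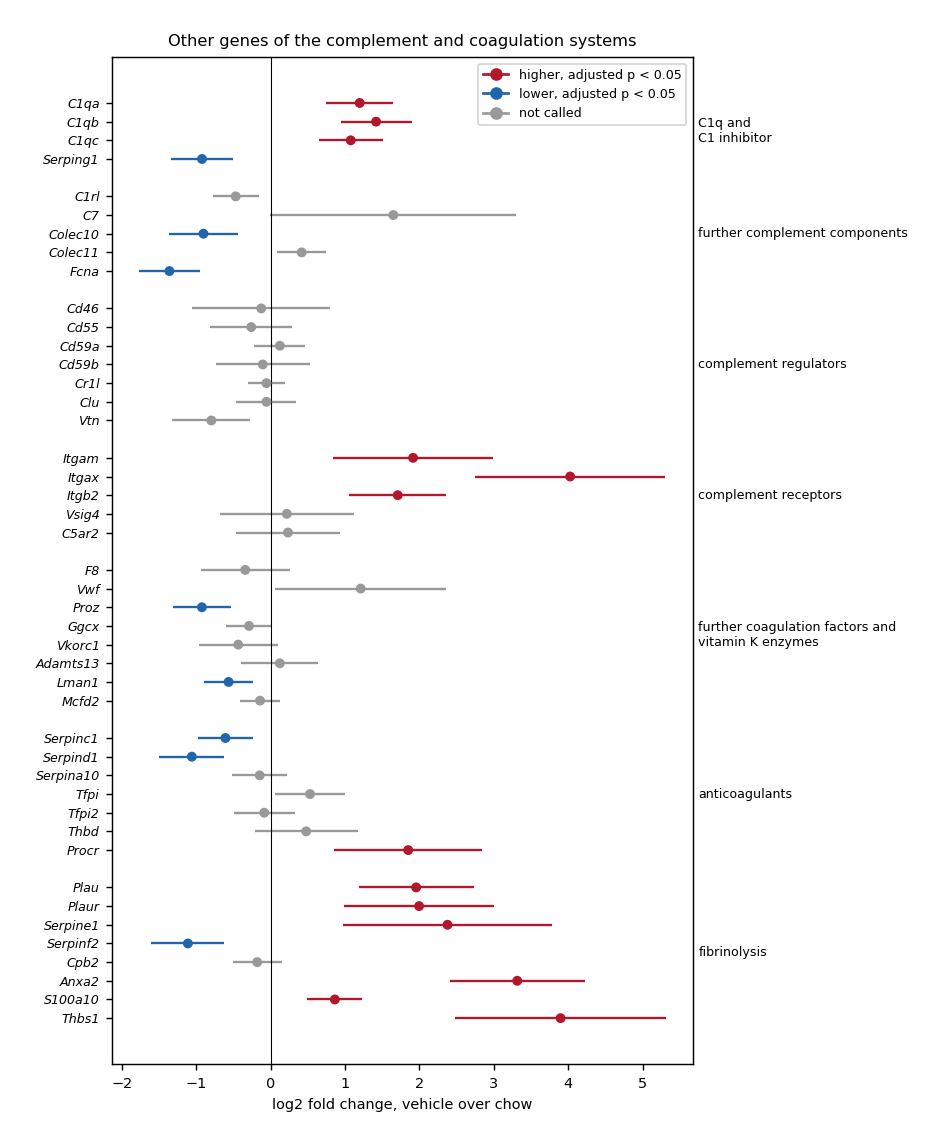
Log2 fold change (x axis), vehicle over chow, with approximate 95% intervals for 44 of the 48 tested complement and coagulation genes outside the list of 40 (y axis, grouped by role), coloured by call. Plat is not drawn because of its low chow counts, and of the genes drawn 13 were called higher, among them the C1q chains, and 8 lower.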

How the data were processed

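RNA of 12 livers was made into libraries with the KAPA mRNA HyperPrep kit and sequenced in pairs of 76-base reads, per the labels. Per the submitters' processing notes, the authors used Trimmomatic 0.35, HISAT2 2.1.0, SAMtools 1.2 and HTSeq with GRCm38, and deposited raw counts per gene. Annotation release, strand setting and treatment of reads with several matches: not given in the sources used here. Symbols and coordinates came from GENCODE M21 (GRCm38). Groups came from the labels, and the mice are separate animals. From the deposited counts, edgeR 4.0.16 (R 4.3.3) fitted all 12 libraries in 1 quasi-likelihood model with TMM scaling after a filter on low counts (minimum 10, total 15), which left 14469 genes. Benjamini-Hochberg adjustment ran over all of them, with calls made at adjusted p under 0.05. SEs were derived from the fold change and the F statistic. On simulated counts for vehicle over chow (14469 genes, 200 changed), 38% of 2-fold and 93% of 4-fold changes were recovered, so changes can be missed. The simulation gave every gene the same dispersion, and in the data many more genes were called (1606 higher and 1180 lower). These rates therefore need not hold for the data. Alternatives were limma 3.58.1 (voom), DESeq2 1.42.0, other scalings, no filter, only the compared groups, and leaving out each library.

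The members and the gene lists were chosen with earlier results of these data known. Members called in a comparison are given with values per library, for the diet the 6 with the lowest p in each direction, and others with their fold change. Where under 3 were called, the 3 with the lowest p are given. Of each other list the 3 genes with the lowest p are named, apart from some that are not reported here, and a gene under 5 counts in a group gets no fold change.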

Additional observations from a re-analysis of the deposited data

How the results depend on the processing

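No paired analysis was made, because the groups hold separate mice, given by ear tags, and the labels name no pairing. With library size alone 8 members were called higher and 5 lower with vehicle against chow, beside 38.1% and 1.71% of all genes. OA against chow then gave 7 higher and 2 lower, beside 25.2% and 0.878% of all genes. OA-NO2 against chow gave 2 higher and 1 lower, beside 7.6% and 0.194%. On that scale 9 members that were not called turned positive for vehicle over chow: C1s1 (0.26), C2 (0.084), C3 (0.067), C4bp (0.31), Cfb (0.29), F2 (0.12), F5 (0.019), Masp1 (0.084) and Mbl1 (0.10), as all genes shifted by the scaling. Against chow, limma voom called 1 member higher in the vehicle group, 1 in the OA group and 0 in the OA-NO2 group. DESeq2 called 12 lower than chow with OA and 7 with OA-NO2. With only the compared groups, 2 were higher for OA over chow. Leaving out 1 library gave 1 to 3 higher and 10 to 16 lower in vehicle over chow. It gave 1 to 3 higher and 1 to 12 lower in OA over chow, and 0 to 1 in each direction when OA-NO2 was compared with chow or with OA. For limma voom, DESeq2, only the compared groups and the fits without 1 library, the shares of all genes called are not given here. Leaving out 1 library also turned signs. For vehicle over chow the range was -0.65 to 0.12 in Cfb (0.12 without vehicle replicate 2), -0.089 to 0.10 in F12 (-0.022, -0.064 and -0.089 without chow replicates 1 and 2 and vehicle replicate 1) and -0.040 to 0.18 in Pros1 (-0.028 and -0.040 without chow replicate 3 and vehicle replicate 2). For OA over vehicle it was -0.21 to 0.39 in C3ar1 (-0.061 and -0.21 without vehicle replicate 1 and OA replicate 1) and -0.45 to 1.56 in Cfd (-0.45 without OA replicate 3). Apart from the shift by scaling, the cause was not tested. With 3 mice in a group, changes under 2-fold can be missed, although some were called, such as C1ra with a log2 fold change of -0.61 for vehicle over chow.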

Other observations

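Factors and receptors that are known to control liver-made plasma proteins were measured in the same libraries. Of 22 such genes 20 could be tested, and with vehicle 3 were lower than in chow and 0 higher by edgeR's quasi-likelihood test. Among all genes tested, 8.16% were called lower and 11.1% higher. The values are on the TMM scale, where the median gene stood at -0.01, against 0.51 with library size alone. Calls of these genes with library size alone are not given here. Il6ra, the receptor of interleukin-6, was at 120.6, 80.3 and 61.2 CPM in chow and at 47.9, 42.5 and 22.4 CPM with vehicle, a log2 fold change of -1.21 ± 0.32 (SE, adjusted p = 0.0215). Nr1h4, the bile acid receptor FXR, had one of -0.60 ± 0.17 (adjusted p = 0.0283), with means of 233 CPM in chow and 153 CPM with vehicle. Hnf4a, a central hepatocyte factor that is also in the hepatocyte marker list, had one of -0.62 (adjusted p = 0.0278), with means of 541 and 351 CPM. With OA-NO2 Il6ra was at 89.5, 121.6 and 81.9 CPM, above every vehicle library, but the log2 difference of 1.38 ± 0.32 did not pass (adjusted p = 0.138). Cebpa and Cebpb, which encode C/EBP factors, had log2 fold changes of 0.07 and -0.01 for vehicle over chow.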
